A study of Mus musculus with 768 samples.

Results

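YAP and TAZ are coactivators of transcription that bind no DNA by themselves and act through the TEAD factors. The kinases MST2 (encoded by *Stk3*) and LATS1 and LATS2, with the scaffold SAV1, form the Hippo cascade that phosphorylates YAP and TAZ and keeps them out of the nucleus, while the angiomotin-like proteins hold them at cell junctions. In Schwann cells (SCs), the glia that ensheath peripheral axons, YAP and TAZ are known to act with TEAD1 during radial sorting of axons and myelination. The 10 genes described are the coactivators *Yap1* and *Wwtr1* (encoding TAZ), the DNA-binding partners *Tead1* and *Tead2*, the kinase arm *Stk3*, *Sav1*, *Lats1* and *Lats2*, and the angiomotin-like genes *Amotl1* and *Amotl2*. They were chosen by name, and all 10 of the 10 were found by Ensembl identifier among the 25700 genes of the count table.

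The cells were sorted from sciatic nerves of C57bl/6J mice at postnatal day 5 that carried P0Cre, a Cre active in the SC lineage, the Cre-dependent reporter ReYFP Tg/+ and the ubiquitous βAct-DsRed Tg/+. No gene was deleted and no treatment was given, so all cells belong to 1 condition, and only SCs in which Cre had acted could enter the sort. Single eYFP-positive cells were placed in 2 plates of 384 wells, each plate 1 biological replicate that mixed cells of a male and a female, and their transcripts were sequenced over the full length by Smart-Seq2. Of 768 wells, 655 held at least 1500 detected genes and did not lie in a plate corner. They were ordered into 4 states by other genes: cycling cells had at least 5 reads in 3 or more of 10 cell cycle genes, and the remaining cells were immature where *Ncmap*, a gene of the myelin sheath, was under 10 CPM (counts per 1000000 reads of the well), intermediate where *Ncmap* was present and *Pmp22*, a main myelin protein gene, was under 30000 CPM, and myelinating above that.

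The replicates held 32 and 25 cycling, 106 and 122 immature, 79 and 70 intermediate and 108 and 113 myelinating cells. The states are ranges along a course: 12 non-cycling wells lay at 5 to 20 CPM of *Ncmap*, and 73 lay at 20000 to 40000 CPM of *Pmp22*. *Sox10*, the defining transcription factor of SCs, had 5 or more reads in 616 of 655 wells. No well had 5 or more reads in at least 3 genes of the endothelial, immune, fibroblast-like, pericyte, neuron or muscle lists, and 4 wells did so for the perineurial list (*Slc2a1*, *Cldn1*, *Itgb4*, *Msln*), of which *Msln* had 0 reads in every state. The rule is strict, since only 239 of 655 wells met it for the SC list (*Sox10*, *S100b*, *Erbb3*). Single genes of the other lists were present, such as *Col1a1* at 727 and 734 CPM in immature cells and *Pdgfrb* at 41.9 and 44.6 CPM in intermediate cells. Others, such as *Pecam1* and *Ptprc*, had 0 reads in every state. The median depth per well lay between 418999 and 819461.5 reads in the 8 sets of cells given by state and replicate and was highest in the myelinating cells. The myelin genes *Mbp* and *Pmp22* together took 12.3% and 12.1% of the reads in myelinating cells and 0.694% and 0.739% in immature cells. The fitted changes below are corrected for this by TMM scaling, which set all genes higher by 0.38 on the log2 scale in the myelinating-to-immature comparison than plain CPM does.

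Promoters are shown first because TEAD factors bind the core GGAATG, read CATTCC from the other strand, and because the genes themselves can lie under the pathway. The 250 bases before the start were searched for both words. RefSeq entries (GRCm38.p6) existed for 8 of the 10 genes, and 4 of the 8 held a word (*Yap1*, *Wwtr1*, *Sav1* and *Amotl2*), against 14.4% of 27025 genes with an entry. The sequences of both coactivators are given, with those of *Ccn1*, a secreted matrix protein and textbook target of YAP and TAZ, and *Vgll3*, a TEAD cofactor, whose levels changed between states. Capitals mark the word, and a match is a description, not a bound site. Every gene shown holds a word, and whether the word goes with a change between states was not tested. Among genes with an entry in the lists described below, a word was found in 8 of 21 pathway genes, 6 of 15 target genes and 1 of 3 SC genes.
Yap1, chr9:8004597-8004846, minus strand: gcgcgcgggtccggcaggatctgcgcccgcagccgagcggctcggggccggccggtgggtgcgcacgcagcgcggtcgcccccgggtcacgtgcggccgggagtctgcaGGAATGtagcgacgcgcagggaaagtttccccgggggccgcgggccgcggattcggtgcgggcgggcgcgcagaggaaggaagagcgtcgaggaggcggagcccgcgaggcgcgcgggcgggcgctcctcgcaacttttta
Wwtr1, chr3:57575911-57576160, minus strand: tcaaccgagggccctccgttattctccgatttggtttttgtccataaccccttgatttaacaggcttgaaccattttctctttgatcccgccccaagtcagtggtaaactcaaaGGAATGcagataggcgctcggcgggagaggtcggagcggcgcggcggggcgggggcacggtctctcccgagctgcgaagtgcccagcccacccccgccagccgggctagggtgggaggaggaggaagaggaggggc
Ccn1, chr3:145649986-145650235, minus strand: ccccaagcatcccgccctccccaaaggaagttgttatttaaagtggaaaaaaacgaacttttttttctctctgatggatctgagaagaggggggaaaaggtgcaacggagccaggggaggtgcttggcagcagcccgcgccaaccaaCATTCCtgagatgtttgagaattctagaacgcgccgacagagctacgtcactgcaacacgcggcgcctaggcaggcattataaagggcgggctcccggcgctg
Vgll3, chr16:65814939-65815188, plus strand: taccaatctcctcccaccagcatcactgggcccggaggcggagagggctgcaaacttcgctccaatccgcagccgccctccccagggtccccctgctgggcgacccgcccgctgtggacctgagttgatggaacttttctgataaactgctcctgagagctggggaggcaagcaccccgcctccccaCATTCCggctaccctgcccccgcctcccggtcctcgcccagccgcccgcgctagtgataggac
The word began 141 bases before the start in *Yap1*, 136 in *Wwtr1*, 103 in *Ccn1* and 63 in *Vgll3*. *Wwtr1* has 2 promoter entries, of which the first is shown.

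The first question was how much of each coactivator the cells hold. *Wwtr1* was the most abundant transcript of the 10 per length of exon and *Yap1* among the least: over the 8 sums the mean was 29.9 CPM per kilobase for *Wwtr1* and 1.67 for *Yap1*, with only *Sav1* below it at 0.455. The order in between was *Lats2* at 8.35, *Tead1* at 7.83, *Amotl1* at 5.87, *Amotl2* at 3.92, *Tead2* at 2.87, *Stk3* at 2.12 and *Lats1* at 2.07. The length is the union of all annotated exons of a gene. This order of means does not hold in every state. In immature cells *Lats1* lay below *Yap1*, at 0.70 and 0.93 against 1.87 and 1.65. In intermediate cells *Tead2* did so, at 0.59 and 0.60 against 1.97 and 1.51. *Lats2* and *Tead1* lay within the spread between replicates of each other in cycling, immature and myelinating cells, and *Stk3*, *Lats1* and *Yap1* could not be ordered in intermediate cells. The ratio of *Wwtr1* to *Yap1* per kilobase was 25.8 and 23.1 in immature cells, 7.33 and 10.3 in intermediate cells and 7.59 and 8.96 in myelinating cells. It was thus higher in both replicates of the immature state than in either replicate of the later states. In cycling cells it was 36.1 and 30.6. The change of this ratio between states was not tested. The *Yap1* sums under it rest on 9 and 14 wells with a read in immature cells and 4 and 5 in cycling cells. A single well held 43.8% and 32.9% of the *Yap1* reads in immature cells, and 47.8% and 57.1% in cycling cells.

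**Figure D1:**
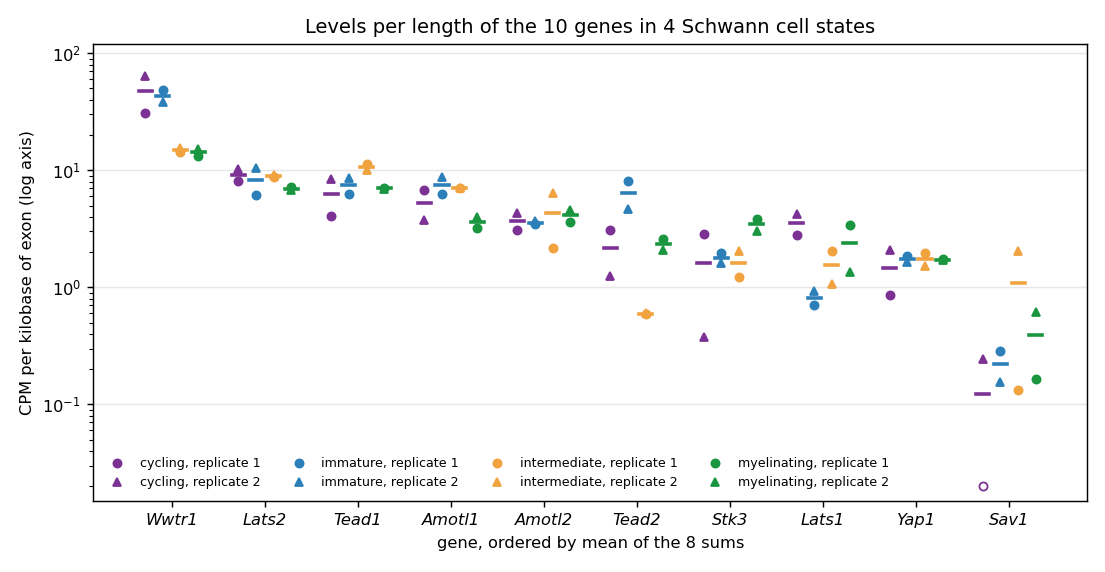
CPM per kilobase of exon (vertical, log axis) of the 10 genes in sums of reads over the cells of each state (color), 1 point per replicate and a bar at the mean of both; the open circle at the foot stands for *Sav1* with 0 reads in cycling cells of replicate 1. *Wwtr1* lies above all others in every state, and *Tead2* has its lowest points in intermediate cells at 0.592 and 0.602.

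*Wwtr1* (chr3:57455649-57575910, minus strand) was at 231 and 182 CPM in immature cells, 68.9 and 74.1 CPM in intermediate cells, and 63.6 and 72.7 CPM in myelinating cells. Both immature sums stood above all 4 later sums, and the later states overlapped. The fitted log2 change was -1.39 ± 0.34 (SE, n = 2 replicates per state) from immature to intermediate, with an adjusted p of 0.095, and -1.22 ± 0.34 from immature to myelinating, with an adjusted p of 0.092 (edgeR quasi-likelihood test, Benjamini-Hochberg over 13892 genes). Neither passed the threshold of 0.05, while DESeq2 on the same sums gave adjusted p-values of 0.0040 and 0.014. The 95% intervals of the log2 change were -2.17 to -0.62 and -1.99 to -0.44. Between intermediate and myelinating cells the log2 change was 0.18 ± 0.34. Cycling cells were at 147 and 304 CPM, which enclosed the immature values.

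The share of wells with a *Wwtr1* read differed less than the level. It was 50.9% and 55.7% in immature, 45.6% and 40.0% in intermediate and 47.2% and 54.9% in myelinating cells, with exact binomial intervals that overlapped, such as 41.0% to 60.8% and 37.5% to 57.1% in the immature and myelinating cells of replicate 1. Among wells with a read, the median was 387 and 344 CPM in immature cells, 114 and 145 CPM in intermediate cells, and 96.5 and 97.1 CPM in myelinating cells. After thinning, the share was 49.5% and 54.7% in immature, 37.5% and 36.2% in intermediate and 40.6% and 50.4% in myelinating cells. Intermediate cells were thus below immature cells in both the share and the amount per positive well, while the replicates of the myelinating and immature states overlapped in the share before and after thinning. No single well held more than 23.4% of the *Wwtr1* reads of a sum.

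*Yap1* (chr9:7931999-8004596, minus strand) showed another picture. Its level was 17.3 and 15.2 CPM in immature cells, 18.2 and 13.95 CPM in intermediate cells, 16.2 and 15.7 CPM in myelinating cells, and 7.90 and 19.2 CPM in cycling cells. All 6 non-cycling sums lay between the cycling sums, and no state stood apart from another. The fitted log2 change from immature to myelinating cells was 0.36 ± 0.70 with an interval of -1.22 to 1.94, and a difference inside that interval was not detectable with these replicates. The share of wells with a read was 8.49% and 11.5% in immature, 15.2% and 17.1% in intermediate, and 24.1% and 30.1% in myelinating cells. These shares did not overlap between the states, and they kept that order when every well was thinned to 100000 reads, at 6.93% and 11.1%, 13.9% and 14.5%, and 20.8% and 26.5%. Among wells with a read the median went the other way, at 154 and 126 CPM, 75.8 and 38.7 CPM, and 36.4 and 35.1 CPM, so no order of *Yap1* expression is read from the shares.

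Over all retained wells, 116 held a *Yap1* read and 335 a *Wwtr1* read. Both were found in 63 wells, *Wwtr1* alone in 272 and *Yap1* alone in 53, and neither in 267, which is 40.8% of the wells and covers cells in which the transcripts were missed.

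**Figure D2:**
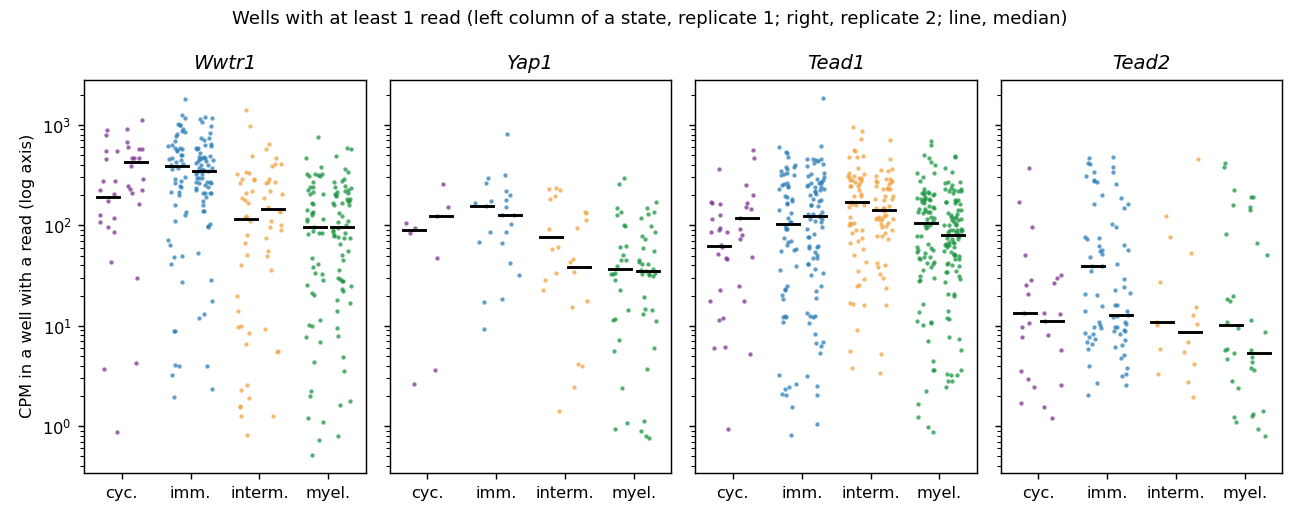
CPM of *Wwtr1*, *Yap1*, *Tead1* and *Tead2* (vertical, log axis) in each well with at least 1 read, by state (cyc., cycling; imm., immature; interm., intermediate; myel., myelinating), with replicate 1 to the left and replicate 2 to the right and a line at the median; wells with 0 reads are not drawn. The *Wwtr1* medians are 387 and 344 in immature cells and 96.5 and 97.1 in myelinating cells.

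The next question was which TEAD partner the cells hold. *Tead1* (chr7:112679318-112906807, plus strand) was the most widely detected of the 10 genes, with a read in 471 of 655 wells. Its level was 85.8 and 116 CPM in immature, 153 and 137 CPM in intermediate, 96.2 and 93.5 CPM in myelinating and 55.0 and 114 CPM in cycling cells. The intermediate sums were the highest, above all 6 others. The log2 change from immature to intermediate cells was 0.66 ± 0.36 with an adjusted p of 0.57, and from intermediate to myelinating -0.37 ± 0.35 with an adjusted p of 0.88, and neither passed. The share of wells with a read was 56.6% and 65.6% in immature, 74.7% and 78.6% in intermediate and 76.9% and 85.8% in myelinating cells. After thinning, the myelinating shares were 67.9% and 77.0%, and both still stood above the immature shares of 47.5% and 63.2%.

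*Tead2* (chr7:45215753-45233644, plus strand) was at 39.0 and 22.2 CPM in immature cells, 2.84 and 2.88 CPM in intermediate cells, 12.5 and 9.97 CPM in myelinating cells, and 14.7 and 6.03 CPM in cycling cells. The immature sums were above all others and the intermediate sums below all others. The log2 change was -3.28 ± 0.83 from immature to intermediate, with an adjusted p of 0.11, and 2.22 ± 0.80 from intermediate to myelinating, with an adjusted p of 0.40, and neither passed in edgeR. With DESeq2 the first had an adjusted p of 0.00063. The intermediate sums rest on 133 and 120 reads, and 1 well held 67.7% of them in replicate 1 and 44.2% in replicate 2. With the highest well of each sum taken out, a check chosen after the values were seen, the log2 change from immature to intermediate was -4.07 with an adjusted p of 0.078.

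Detection of *Tead2* was lower in both later states than in immature cells. A read was found in 36.8% and 32.0% of immature wells, 8.86% and 14.3% of intermediate wells and 16.7% and 15.9% of myelinating wells, and thinning left 26.7% and 28.2%, 6.94% and 7.25%, and 10.4% and 11.5%. In cycling cells the share was 46.9% and 44.0%, the highest of the states, although the median positive well held only 13.4 and 11.2 CPM. The ratio of *Tead1* to *Tead2* per kilobase was 0.776 and 1.84 in immature cells, 19.05 and 16.7 in intermediate cells and 2.72 and 3.31 in myelinating cells. In cycling cells it was 1.32 and 6.67, so the ratio was highest in both replicates of the intermediate state. It covers these 2 of the TEAD genes only: *Tead3* and *Tead4* were at means of 4.09 and 8.22 CPM in intermediate cells. The exons of *Tead2* overlap those of *Cd37* on the opposite strand, which had 34 reads in the retained wells.

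**Figure D3:**
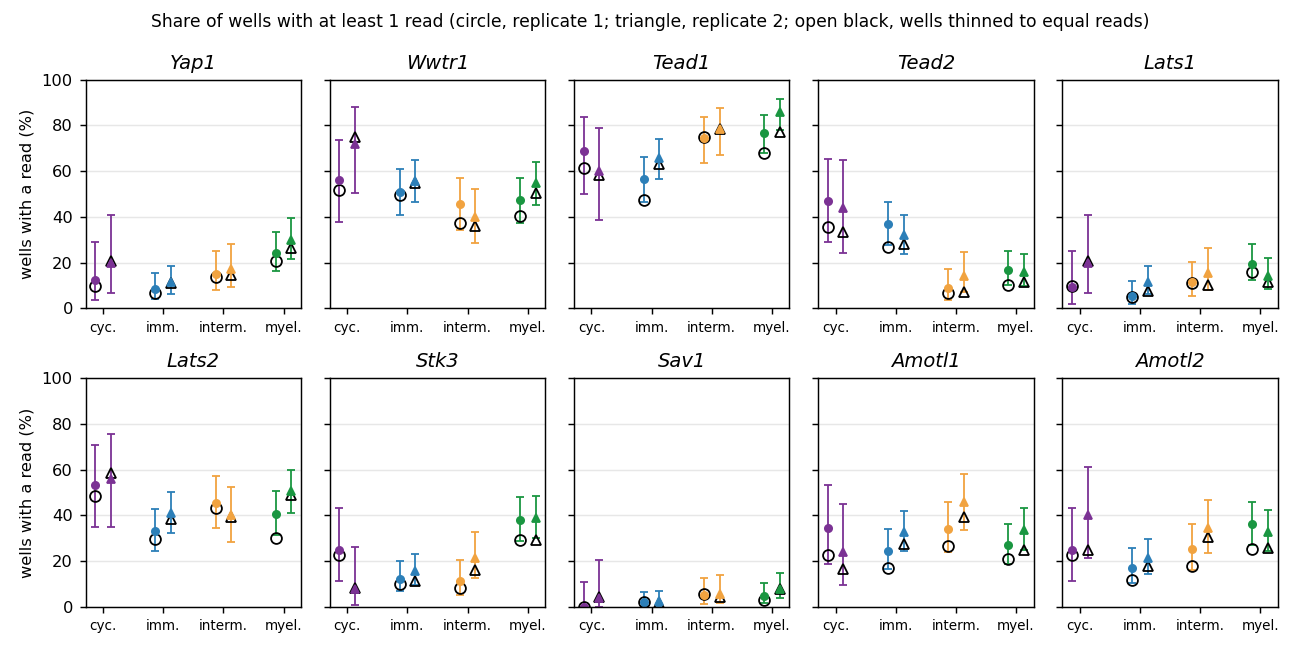
Share of wells with at least 1 read (vertical, percent) of each gene by state (cyc., cycling; imm., immature; interm., intermediate; myel., myelinating) and replicate (circle 1, triangle 2), with exact 95% binomial intervals that cover counting error only; open black symbols are the shares after thinning each well to 100000 reads. *Yap1* and *Stk3* reach their highest shares in myelinating cells at 24.1% and 30.1% and at 38.0% and 38.9%, and *Tead2* is lowest in intermediate cells.

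The kinase arm came next. *Lats1* (chr10:7681214-7716460, plus strand) was at 5.13 and 6.77 CPM in immature cells, 14.995 and 7.76 CPM in intermediate, 25.0 and 9.89 CPM in myelinating and 20.6 and 30.7 CPM in cycling cells. The immature sums were the lowest of the 8. The log2 change was 2.21 ± 0.79 from immature to cycling, with an adjusted p of 0.22 by edgeR and 0.033 by DESeq2, and 1.94 ± 0.78 from immature to myelinating, with an adjusted p of 0.26. These sums rest on few wells: 1 well held 88.8% of the *Lats1* reads of the intermediate cells of replicate 1 and another 75.8% of those of the cycling cells of replicate 1.

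*Lats2* (chr14:57689662-57758388, minus strand) was detected in 281 wells against 85 for *Lats1*. It lay between 42.9 and 72.7 CPM in all 8 sums, and both extremes came from immature cells. The log2 change from immature to myelinating cells was 0.14 ± 0.35, with an interval of -0.67 to 0.94. The ratio of *Lats2* to *Lats1* per kilobase was 8.75 and 11.2 in immature cells and 2.10 and 4.99 in myelinating cells. It was 4.25 and 8.56 in intermediate and 2.89 and 2.43 in cycling cells, and its change between states was not tested. The *Lats1* sums of immature cells rest on 6 and 14 wells with a read. *Gm49361*, which shares exons with *Lats2* on the same strand, had 10122 reads in the retained wells, and reads that fit both genes may be missing from *Lats2* or divided between them.

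*Stk3* (chr15:34875496-35178921, minus strand) was at 12.1 and 9.86 CPM in immature, 7.47 and 12.4 CPM in intermediate, 23.6 and 18.6 CPM in myelinating and 17.3 and 2.30 CPM in cycling cells. Myelinating sums were the highest, and the log2 change against immature cells was 1.32 ± 0.96 with an adjusted p of 0.60. The share of wells with a *Stk3* read was 38.0% and 38.9% in myelinating cells, against 12.3% and 15.6% in immature and 11.4% and 21.4% in intermediate cells. After thinning it was 29.2% in both replicates of the myelinating cells, against 9.90% and 11.1% in immature cells. Higher thinned shares without overlap of the replicates were found for 45.7% of all genes in this comparison. The exact intervals before thinning, 28.8% to 47.8% and 6.69% to 20.1% in replicate 1, cover counting error over wells. They do not test the states against each other.

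*Sav1* (chr12:69965012-69987002, minus strand) was near the limit of detection, with 995 reads in 28 of 655 wells. It had 0 reads in the 32 cycling cells of replicate 1, which allows a share of wells with a read of up to 9.38% (3 counts) and sets no limit to cells whose transcripts were missed. The highest sum, 10.7 CPM in intermediate cells of replicate 2, came from 4 wells, and the same state in replicate 1 was at 0.704 CPM. The exons of *Sav1* overlap those of *Atl1* on the opposite strand, which had 12904 reads, and no strand is marked by the protocol, so the reads of the pair cannot be told apart where they overlap.

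The angiomotin-like genes came last of the 10, and no change of either passed. *Amotl1* (chr9:14541966-14645056, minus strand) was at 63.2 and 87.4 CPM in immature, 71.7 and 71.4 CPM in intermediate, 32.3 and 40.4 CPM in myelinating and 68.3 and 38.0 CPM in cycling cells. The myelinating sums lay below the immature and intermediate sums. The log2 change was -0.73 ± 0.38 against intermediate cells, with an adjusted p of 0.61, and -0.67 ± 0.37 against immature cells, with an adjusted p of 0.45. When each cell counted the same (limma on the mean CPM per cell), the latter change was -1.16 with an adjusted p of 0.036. *Amotl2* (chr9:102716672-102733418, plus strand) was at 21.98 and 22.97 CPM in immature and 22.9 and 28.8 CPM in myelinating cells, a log2 change of 0.58 ± 0.61. In intermediate cells its replicates were far apart, at 13.5 and 40.5 CPM. The ratio of *Amotl1* to *Amotl2* per kilobase was 1.80 and 2.38 in immature, 3.32 and 1.10 in intermediate and 0.881 and 0.876 in myelinating cells, and its change between states was not tested.

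Across the 4 comparisons none of the 10 genes passed the edgeR test. The background was 2.48% of 13892 genes for cycling against immature, 1.97% for intermediate against immature, 0.777% for myelinating against intermediate and 5.10% for myelinating against immature, so a count of 0 in 10 is near what these shares give. At an unadjusted p under 0.05 the counts were 1, 2, 1 and 2 of 10, beside 15.4%, 10.9%, 9.37% and 16.3% of all genes. DESeq2 called 1, 2, 0 and 1, beside 10.3%, 7.02%, 5.01% and 11.1%. Plates of the compared states did not overlap in CPM for 2, 4, 5 and 5 of the 10 genes, beside 45.3%, 43.9%, 47.4% and 58.0% of all genes. The median log2 change of the 10 genes was -0.11, 0.18, 0.18 and 0.33, beside -0.13, -0.03, 0.0031 and -0.04 over all genes tested.

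Shares of wells with a read did not overlap between myelinating and immature cells for 7 of the 10 genes, 6 of them higher (*Yap1*, *Tead1*, *Lats1*, *Stk3*, *Sav1* and *Amotl2*) and *Tead2* lower. Over all genes 53.3% were higher and 12.1% lower in this way. After thinning, the members were the same and the background was 45.7% and 14.7%, so more frequent detection in myelinating cells was general. Between cycling and immature cells, shares did not overlap for 5 genes, all higher in cycling cells (*Yap1*, *Wwtr1*, *Tead2*, *Lats2* and *Amotl2*), beside 36.9% of all genes. With 5 reads as the limit this held for 3 (*Tead1*, *Lats2* and *Amotl2*), beside 34.6%. After thinning, the shares of *Yap1* and *Wwtr1* overlapped, and those of *Lats1* no longer did. The thinned *Yap1* shares were 9.68% and 20.8% in cycling and 6.93% and 11.1% in immature cells. No share over all genes was taken for the thinned wells in this comparison.

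**Figure D4:**
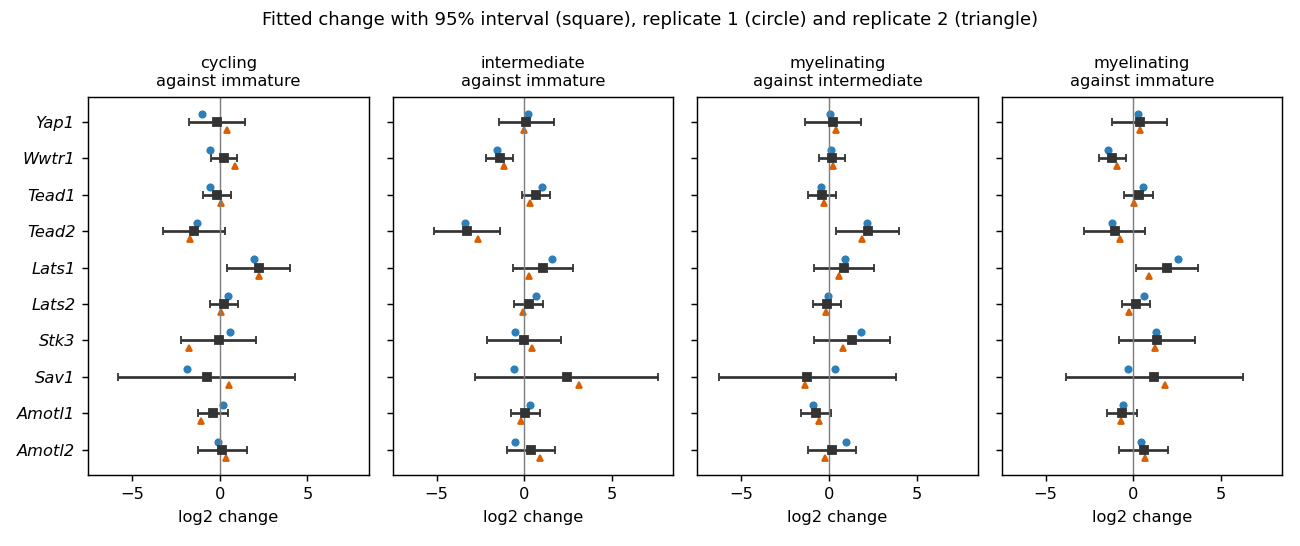
Fitted log2 change (horizontal) of the 10 genes in 4 comparisons, with its 95% interval (square and bar), and the TMM-scaled log2 ratio in replicate 1 (circle) and replicate 2 (triangle). The intervals of *Wwtr1* and *Tead2* lie below 0 from immature to intermediate cells, and none of the 10 genes passed the adjusted threshold.

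Other genes of the pathway were looked at as a fixed list of 26, of which 25 were tested. Of these, 0 passed from immature to cycling cells, 1 was lower from immature to intermediate, 0 passed from intermediate to myelinating, and 1 was higher and 1 lower from immature to myelinating cells. Over all genes 2.48%, 1.97%, 0.777% and 5.10% were called in either direction, and counts this small are near those shares. Their median log2 changes were 0.01, 0.38, 0.00 and 0.06, beside -0.13, -0.03, 0.0031 and -0.04 over all genes tested. *Vgll3*, whose product also binds TEAD factors, fell from 112 and 151 CPM in immature cells to 21.5 and 39.7 CPM in intermediate cells, a log2 change of -1.97 ± 0.35 with an adjusted p of 0.028. In myelinating cells it was at 32.8 and 33.9 CPM, a log2 change of -1.59 ± 0.35 against immature cells with an adjusted p of 0.032, and in cycling cells at 151 and 192 CPM. *Wwc2*, a gene of the KIBRA family that acts upstream of the LATS kinases, rose from 22.2 and 22.5 CPM in immature cells to 56.6 and 69.8 CPM in myelinating cells, a log2 change of 1.88 ± 0.41 with an adjusted p of 0.032. Its share of wells with a read was 22.2% ± 3.4 (SD, n = 2) and 59.6% ± 7.1. *Cldn22*, which overlaps *Wwc2* on the opposite strand, had 285 reads.

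Transcription that YAP and TAZ are known to drive was read from a published signature of 22 genes, fixed as a list, of which 19 were tested and 2 (*Amotl2*, *Lats2*) are among the 10. None passed from immature to cycling cells. From immature to intermediate cells 0 rose and 2 fell, from intermediate to myelinating 1 rose and 0 fell, and from immature to myelinating 0 rose and 2 fell. Over all genes 2.48%, 1.97%, 0.777% and 5.10% were called in either direction, in the same order of comparisons. The median log2 change of the list was -0.96 from immature to intermediate and -1.02 from immature to myelinating cells, beside -0.03 and -0.04 over all genes. These medians were not tested. The first is the value of *Tgfb2*, with an SE of 1.65, at means of 8.27 CPM in immature and 3.91 CPM in intermediate cells. The second is that of *Ccn1*. The list holds genes near the floor, such as *Myof* at 3.41 and 0.901 CPM in immature and intermediate cells. At an unadjusted p under 0.05, 7 were lower and 2 higher of 19 in intermediate cells, and 5 lower and 3 higher in myelinating cells, beside 10.9% and 16.3% of all genes in either direction. The higher ones, named after their values were seen, did not pass: *Asap1* had a log2 change of 1.49 in both comparisons, *Ptpn14* of 1.27 and 1.46, and *Arhgef17* of 1.64 in myelinating cells.

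*Ccn1* (chr3:145646976-145649981, minus strand) was the most abundant of the named targets and was lowest in intermediate cells. It was at 1964 and 2168 CPM in immature cells, 196 and 126 CPM in intermediate cells, 945 and 611 CPM in myelinating cells and 1445 and 2090 CPM in cycling cells. It fell from immature to intermediate cells with a log2 change of -3.54 ± 0.31 (adjusted p of 0.00084) and rose from intermediate to myelinating cells with a log2 change of 2.51 ± 0.30 (adjusted p of 0.0072). Between immature and myelinating cells the log2 change was -1.02, with an adjusted p of 0.092. The call from intermediate to myelinating was lost with the *Pmp22* border at 40000 CPM, at an adjusted p of 0.071. Wells with 5 or more reads made up 54.7% and 62.3% of immature, 26.6% and 30.0% of intermediate and 54.6% and 57.5% of myelinating cells. *Ccn1* is also an immediate-early gene of cells taken from tissue. *Fos*, *Egr1*, *Jun* and *Atf3*, chosen after the values were seen, were together at 8930 and 9395 CPM in immature, 3805 and 4430 CPM in intermediate and 3773 and 3605 CPM in myelinating cells, and their part in the *Ccn1* result was not tested.

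*Ccdc80* and *Fjx1*, the other targets that passed, were almost confined to cycling and immature cells in these libraries. Most immature wells held no read of them: *Ccdc80* was found in 17.9% and 17.2% of these wells and *Fjx1* in 12.3% and 9.84%. *Ccdc80*, a matrix protein gene, had 3718 and 3040 reads in immature cells, 9 and 14 in intermediate cells and 1 and 1 in myelinating cells, with adjusted p-values of 0.0051 for immature to intermediate and 0.00055 for immature to myelinating. *Fjx1*, which encodes a homolog of the Four-jointed kinase of the Hippo branch upstream of FAT, had 863 and 1151 reads in immature cells, 16 and 2 in intermediate cells and 0 and 3 in myelinating cells. Its adjusted p by edgeR was 0.014 for immature to myelinating and 0.079 for immature to intermediate, which did not pass. Of the remaining textbook targets, *Ccn2* had 129 reads in all retained wells, 126 of them in immature cells of replicate 1, where 1 well held 99.2%, and *Ankrd1* had 1 read. Neither was tested.

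Genes tied to YAP, TAZ and TEAD1 in SCs were the last list, of which 5 genes are reported, all tested. None passed from immature to cycling or from intermediate to myelinating cells, where 1 and 2 of 5 had an unadjusted p under 0.05, beside 15.4% and 9.37% of all genes, and DESeq2 called 1 and 0, beside 10.3% and 5.01%. From immature to intermediate cells 1 of 5 rose, beside 1.97% of all genes called in either direction, and from immature to myelinating cells 2 of 5 rose, beside 5.10%, and 0 fell in either. *Dag1*, encoding the laminin receptor dystroglycan, rose from 162 and 183 CPM to 308 and 430 CPM in intermediate cells (a log2 change of 1.23 ± 0.22, adjusted p of 0.028) and 377 and 394 CPM in myelinating cells (1.54 ± 0.22, adjusted p of 0.0042). *Egr2*, the master factor of myelination, rose from 103 and 110 CPM in immature to 250 and 161 CPM in myelinating cells, a log2 change of 1.34 ± 0.27 with an adjusted p of 0.024. The states were set by *Ncmap* and *Pmp22*, which are myelin genes themselves, and the direction of genes that move with myelination is not independent of that rule. *Sox10*, *Itga6*, encoding an integrin subunit that receives laminin, and *Gnas* did not pass in any comparison of the reported edgeR fit. The gene that DESeq2 called from immature to cycling cells was *Gnas*, with an adjusted p of 0.023. The exons of *Gnas* overlap those of *Gm20721* on the opposite strand, which had many reads. Reads of this pair cannot be told apart where they overlap, so the level of *Gnas* and its test results are uncertain. *Itga6* was at 413 and 501 CPM in immature and 480 and 424 CPM in myelinating cells.

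**Figure D5:**
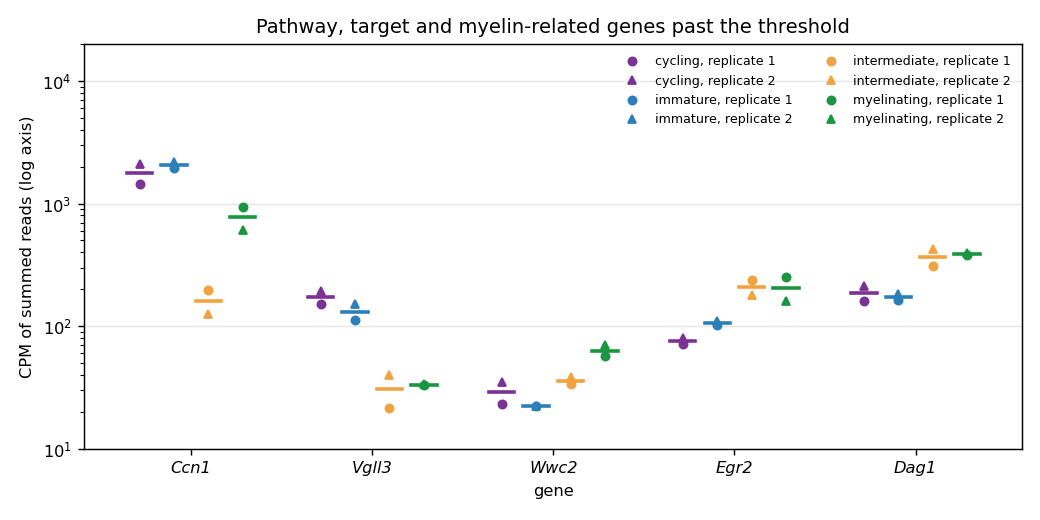
CPM of summed reads (vertical, log axis) of *Ccn1*, *Vgll3*, *Wwc2*, *Egr2* and *Dag1* in each state (color) and replicate (circle 1, triangle 2), with a bar at the mean. *Ccn1* is at 196 and 126 in intermediate cells between 1964 and 2168 in immature and 945 and 611 in myelinating cells, while *Dag1* is at 377 and 394 in myelinating cells.

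Genes whose levels ran most alike over the 8 sums were sought among 6318 genes with a mean of at least 20 CPM, by Pearson's r of log2(CPM + 1). *Mrpl1* (r = 0.99), *Mgea5* (0.96) and *Hmox2* (0.96) were nearest to *Yap1*, *Anapc16*, *Gemin7* and *Nsmce1* (0.97 each) to *Wwtr1*, and *Myo10* (0.98) and *Nav3* (0.97) to *Tead1*. With 8 points that share plates and depth, such values describe these sums only. *Wwtr1* and *Yap1* had an r of 0.05 with each other, and *Tead1* and *Tead2* an r of -0.62.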

How the data were processed

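The authors sorted single eYFP-positive cells into 2 plates, prepared Smart-Seq2 libraries and deposited raw read counts per gene and well. The labels' processing notes name bcl2fastq, STAR 2.6.1c, featureCounts and GRCm38.p5. The methods of the study name another STAR version and a human build, and the table states none. Of 25700 identifiers 25587 matched GENCODE vM21 (GRCm38), the source of symbols, coordinates and exon lengths. Full-length reads carry no molecular identifiers or strand, so intervals and limits cover counting error only. No doublet caller was run, and no 2 wells held identical counts. All cells belong to 1 labelled group.

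Wells were grouped into 4 states by the rule given above. Cells are not replicates, so reads were summed per state and plate (8 sums) and tested with edgeR 4.0.16 in R 4.3.3 (TMM, filterByExpr, quasi-likelihood, 4 residual degrees of freedom) over 13892 genes. Adjusted p-values are Benjamini-Hochberg values over all of them, with a threshold of 0.05. The 12 genes that set the states stayed in the library sizes and were not tested. The p-values measure only the spread between 2 plates. The pooled cells of each plate cannot be assigned to animals. DESeq2 1.42.0 and limma 3.58.1 (log2 of the mean CPM + 1) were alternatives, and the edgeR fit was tested on simulated data. Levels are CPM of the sums before TMM scaling, and levels of different genes were compared only per kilobase of exon. Genes were named by a rule: all 10 members, the genes of each list that passed and had at least 20 CPM, up to 3 per direction, with *Ccn1*, *Ccn2* and *Ankrd1* whatever their values. *Fjx1* passed but lies under 20 CPM and was named after its values were seen. Some genes of the lists and rankings are not reported here. The members and lists were chosen with earlier results of these data known.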

Additional observations from a re-analysis of the deposited data

Results flagged for a closer look

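Reads of the 10 genes also lay in the 113 wells left out of all comparisons, where no level had been planned. They came to 7115 reads in all, of which 23 were in the 8 corner wells and 7092 in the 105 wells under 1500 genes. *Amotl2* had 3453 reads there, all in 1 well of 983 detected genes, beside 10415 reads in the 655 retained wells. *Lats2* had 2020, of which 1 well held 99.5%, *Wwtr1* had 1035 in 12 wells and *Tead1* 517 in 9 wells. *Tead2* had 47, *Amotl1* 29 and *Sav1* 11 reads. These 7 genes exceeded the 3 reads that a count of 0 allows, the limit used to flag them, while *Stk3* with 2 reads, *Lats1* with 1 and *Yap1* with 0 did not. This limit is no test of detection, since the reads of a gene can come from 1 well. No value of these wells entered a sum.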

How the results depend on the processing

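The count of the 10 genes past the threshold was 0 in the 4 comparisons and rose under some alternatives. From immature to cycling it was 1 with DESeq2 (*Lats1*). From immature to intermediate it was 2 with DESeq2 (*Wwtr1*, *Tead2*) and 1 each with no filter on low counts (*Wwtr1*), with cells thinned to 100000 reads (*Tead2*) and with limma on the mean CPM per cell (*Wwtr1*). From intermediate to myelinating it was 0 in every fit. From immature to myelinating it was 1 each with DESeq2, with no filter and with thinning (*Wwtr1*), and 2 with limma (*Wwtr1*, *Amotl1*). It stayed at 0 with the plate as a replicate block, DESeq2 size factors, at least 2500 genes per well, corner wells kept, plate columns 8 and 16 left out, the other *Ncmap* and *Pmp22* borders, 2 cell cycle genes, and, added after the data were seen, the highest well of each gene and sum left out. The plates pair weakly (correlations of deviations from -0.00874 to 0.187). The count of 5 genes whose shares of wells did not overlap between cycling and immature cells was 3 with 5 reads as the limit. It was 4 after thinning (*Tead2*, *Lats1*, *Lats2* and *Amotl2*), and 2 genes (*Lats2*, *Amotl2*) were in every set.

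Directions were followed for 29 log2 changes, a selection that leaves out many comparisons of the 10 genes. For some of those left out, the replicates pointed in opposite directions. Examples are *Stk3* (0.58 and -1.77) and *Amotl1* (0.20 and -1.07) in cycling against immature cells, and *Amotl2* (-0.53 and 0.92) in intermediate against immature cells. Of 464 alternative values of the 29 selected log2 changes, 456 kept their direction. Those that turned were *Yap1* in myelinating against immature cells (-0.026 with limma), *Wwtr1* in cycling against immature cells (-0.019 with limma and -0.56 without replicate 2, against 0.24 in the reported fit) and in myelinating against intermediate cells (-0.23 with limma and -0.27 with the *Pmp22* border at 40000 CPM) and *Lats2* in myelinating against immature cells (-0.017 thinned, -0.28 with limma and -0.25 without replicate 1, against 0.14). Called genes that missed the threshold under 1 alternative were *Ccn1* in myelinating against intermediate cells (adjusted p of 0.071, *Pmp22* border at 40000 CPM), *Vgll3* in myelinating cells (adjusted p of 0.058, *Pmp22* border at 40000 CPM), *Wwc2* (0.063, border at 20000 CPM), *Egr2* (0.054, 2 cell cycle genes) and, under 2, *Dag1* in intermediate cells (0.083 with limma, 0.080 with the border at 20000 CPM). Without either replicate no called change turned. The cause of these changes was not tested.

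Over all genes, 345, 274, 108 and 709 passed in the order above, beside 1348, 937, 655 and 1515 with DESeq2, 856, 696, 442 and 1204 with no filter, 492, 481, 205 and 993 thinned, 798, 502, 307 and 1587 with limma, and 268, 255, 94 and 675 with the replicate block. For cycling against immature cells it was 171 with 2 cell cycle genes and 783 with the highest wells left out. With 2 plates per state and levels of *Yap1*, *Lats1* and *Stk3* of 2.30 to 30.7 CPM and of *Sav1* of at most 10.7 CPM, the intervals of their log2 changes span several units.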
